A study of Mus musculus with 4 samples.

Results

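The Slit ligands and Robo receptors are 6 genes of axon guidance, Slit1, Slit2, Slit3, Robo1, Robo2 and Robo3, out of 22333 protein-coding genes to which a peak could be assigned. They were described in a Flag ChIP-seq peak list from mouse iMN-ESCs, embryonic stem cells of the A172LoxP line in which a Tet-inducible transgene makes FLAG-Isl1-Lhx3, a single protein that joins the LIM-homeodomain factors Isl1 and Lhx3 behind a Flag tag. A peak was counted for a gene when, among protein-coding genes of GENCODE M1 on mm9, a transcript of that gene, coding or not, had the start nearest to the peak maximum. A protein-coding start means such a start throughout. By this rule 8 of 2454 nuclear peaks, in 7 of 2301 regions, belonged to the 6 genes. Slit3 held 4 peaks, Robo1 held 3 and Robo3 held 1, while Slit1, Slit2 and Robo2 held 0. Thus 3 of the 6 genes had a peak, against 8.18% of all protein-coding genes, read below beside the lengths of gene territories.

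Embryoid bodies received 0.5 µM retinoic acid for 2 days and then, for 4 days, retinoic acid together with 2 µg/mL doxycycline (Dox) in 2 libraries, or retinoic acid with no Dox in the other 2 libraries. LIF, a cytokine that acts through JAK kinases and STAT3, was given in all 4 cases at 1000 units/mL for the last 16 hours. The antibody was against the Flag tag of the transgene's fusion protein. From which libraries the listed scores came is not stated, and the labels do not say how many clones of the line were used. The deposited list has 1 ChIP score, 1 background score and 1 tag count per entry and no column per library, so neither the spread between the 2 sets nor a difference between the Dox and no-Dox libraries could be measured for any gene. A list of bound regions holds no RNA levels, so the motor neuron identity of the cells could not be checked on markers.

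Slit proteins are secreted cues that mostly repel growing axons, and Robo proteins are the transmembrane receptors that read them. In the developing spinal cord Slits are made at the ventral midline and also by motor neurons, Robo1 and Robo2 keep axons from crossing or re-crossing the midline, and Robo3 allows commissural axons to cross. Slit2 and Slit3 each carry in an intron a copy of the gene for miR-218, a microRNA that is abundant in motor neurons.

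Isl1 and Lhx3 bind AT-rich sequence with TAAT cores, so the 200 bp around the maximum are shown for the strongest peak of each bound gene and for a further peak inside Slit3. All are on the + strand of mm9, and capitals mark every TAAT or ATTA, which are the same core on opposite strands. The Slit3 peak of score 74.67 lies at chr11:35357779-35357978 in this 200 bp form, the Slit3 peak of score 45.5 at chr11:35477281-35477480, the Robo1 peak of score 44.7 at chr16:72699717-72699916 and the Robo3 peak of score 40.42 at chr9:37264276-37264475.
Slit3, score 74.67: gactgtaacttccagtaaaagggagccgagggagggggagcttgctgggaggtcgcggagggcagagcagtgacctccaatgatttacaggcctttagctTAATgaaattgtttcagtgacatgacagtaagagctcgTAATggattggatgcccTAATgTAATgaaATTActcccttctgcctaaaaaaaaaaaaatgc
Slit3, score 45.5: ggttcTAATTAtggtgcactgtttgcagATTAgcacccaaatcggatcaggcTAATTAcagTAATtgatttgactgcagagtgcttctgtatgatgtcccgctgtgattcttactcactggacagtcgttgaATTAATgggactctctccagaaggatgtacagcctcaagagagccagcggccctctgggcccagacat
Robo1, score 44.7: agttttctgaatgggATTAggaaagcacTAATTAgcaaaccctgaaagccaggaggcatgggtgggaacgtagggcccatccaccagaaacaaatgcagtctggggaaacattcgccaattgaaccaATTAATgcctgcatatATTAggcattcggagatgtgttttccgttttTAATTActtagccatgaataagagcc
Robo3, score 40.42: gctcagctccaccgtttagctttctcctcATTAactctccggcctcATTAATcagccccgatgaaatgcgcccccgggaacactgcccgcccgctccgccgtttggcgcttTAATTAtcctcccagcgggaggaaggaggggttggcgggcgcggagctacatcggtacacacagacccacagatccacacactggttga
The first Slit3 window had 5 cores, all to the right of the maximum, and no TAATTA. The second Slit3 window and the Robo1 window had 8 cores each, and the Robo3 window had 5 in the sequence with the highest GC content of the set.

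Slit3, which encodes 1 of the 3 Slit ligands, carried the peak with the highest ChIP score of the family. Its 4 assigned peaks lay in 3 regions, the same number of regions as Robo1, and with the nearest start taken from all annotated genes it kept 1 peak, against 3 for Robo1. Its strongest peak (chr11:35357629-35358128, the authors' 500 bp window) scored 74.67, with a background score of 0.02. The region had 60 tags (45.8 to 77.2, exact 95% Poisson interval, which covers counting error only). Its rank was 263 of 2454, so that 10.8% of all peaks scored as high or higher, and the median of all peaks was 41.0. The scores are the authors' own. Neither their scale nor the origin of the background score is stated, and they serve only to rank and describe peaks of this 1 list.

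This strongest peak lay deep inside the gene rather than at its annotated coding start. Slit3 runs over 587 kb of chromosome 11 (34934726 to 35522009, + strand), and the peak maximum was 423 kb from the only annotated start of a protein-coding Slit3 transcript. It lay in intron 5 of 35, 353 bp before the next exon. A shorter noncoding transcript of the gene (chr11:35358187-35426138, processed transcript, 68.0 kb) starts there, and the maximum was 0.309 kb upstream of that start. Only this noncoding start tied the peak to Slit3 by the nearest-start rule. With starts of coding transcripts alone, a choice made with the data in view, the nearest start was that of Pank3, a pantothenate kinase gene, at 225 kb, although the peak still lay inside Slit3.

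The other 3 assigned Slit3 peaks had scores under the median and all lay in intron 4, which is 273 kb long. The peak at chr11:35164830-35165329 scored 36.94 over a background of 1.96, and its region held 32 tags (21.9 to 45.2). The remaining pair, at chr11:35108546-35109045 and chr11:35108652-35109151, were 2 maxima of 1 region with 27 tags (17.8 to 39.3), with ChIP scores of 33.46 and 31.31 and background scores of 2.49 and 3.45. They are thus not independent peaks. These 3 had the highest background scores of the 8, at 5.31%, 7.44% and 11.0% of the ChIP score, against 0.0268% at the strongest Slit3 peak. With 1 added to each score the shares were 7.8%, 10.1% and 13.8%, against 1.35% at the strongest peak, so the size of this contrast depends on how values near 0 are treated. Among all 2454 peaks, 5.42% had a background score of 10% or more of the ChIP score. With the nearest start taken from all annotated genes, the 3 went to the noncoding gene Gm12122 and the pseudogene Gm12123, both inside Slit3.

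A further peak lay inside Slit3 without being assigned to it. Its maximum was in intron 25 of 35, 184 bp before the next exon (chr11:35477131-35477630), and it scored 45.5 over a background of 0.26, with 24 tags (15.4 to 35.7). The start of Pank3 was 106 kb away and the nearest Slit3 start 119 kb, so the rule gave it to Pank3. It would be the second strongest Slit3 peak if location inside the gene were the rule. By that rule Slit3 held 5 peaks in 4 regions.

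Both of the strongest peaks inside Slit3 stood on either side of Mir218-2 (chr11:35430318-35430427, + strand), 1 of the 2 genes for miR-218. The peak of score 74.67 lay at -72.4 kb from the microRNA's start, which is upstream, and the peak of score 45.5 lay at 47.1 kb, downstream. The noncoding Slit3 transcript that starts beside the stronger peak ends 4.18 kb before Mir218-2. Because Slit2 hosts the other copy, Mir218-1 (chr5:48615181-48615290), the 2 loci can be set side by side: the nearest peak to Mir218-1 was 1900 kb away. The mature microRNA is given from RefSeq (GRCm38.p6), with its seed, bases 2 to 8, in capitals.
mmu-miR-218-5p: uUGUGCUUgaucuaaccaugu
Binding in these introns was measured on DNA alone, and whether Slit3, Mir218-2 or Pank3 changed in level was not measured here.

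**Figure D1:**
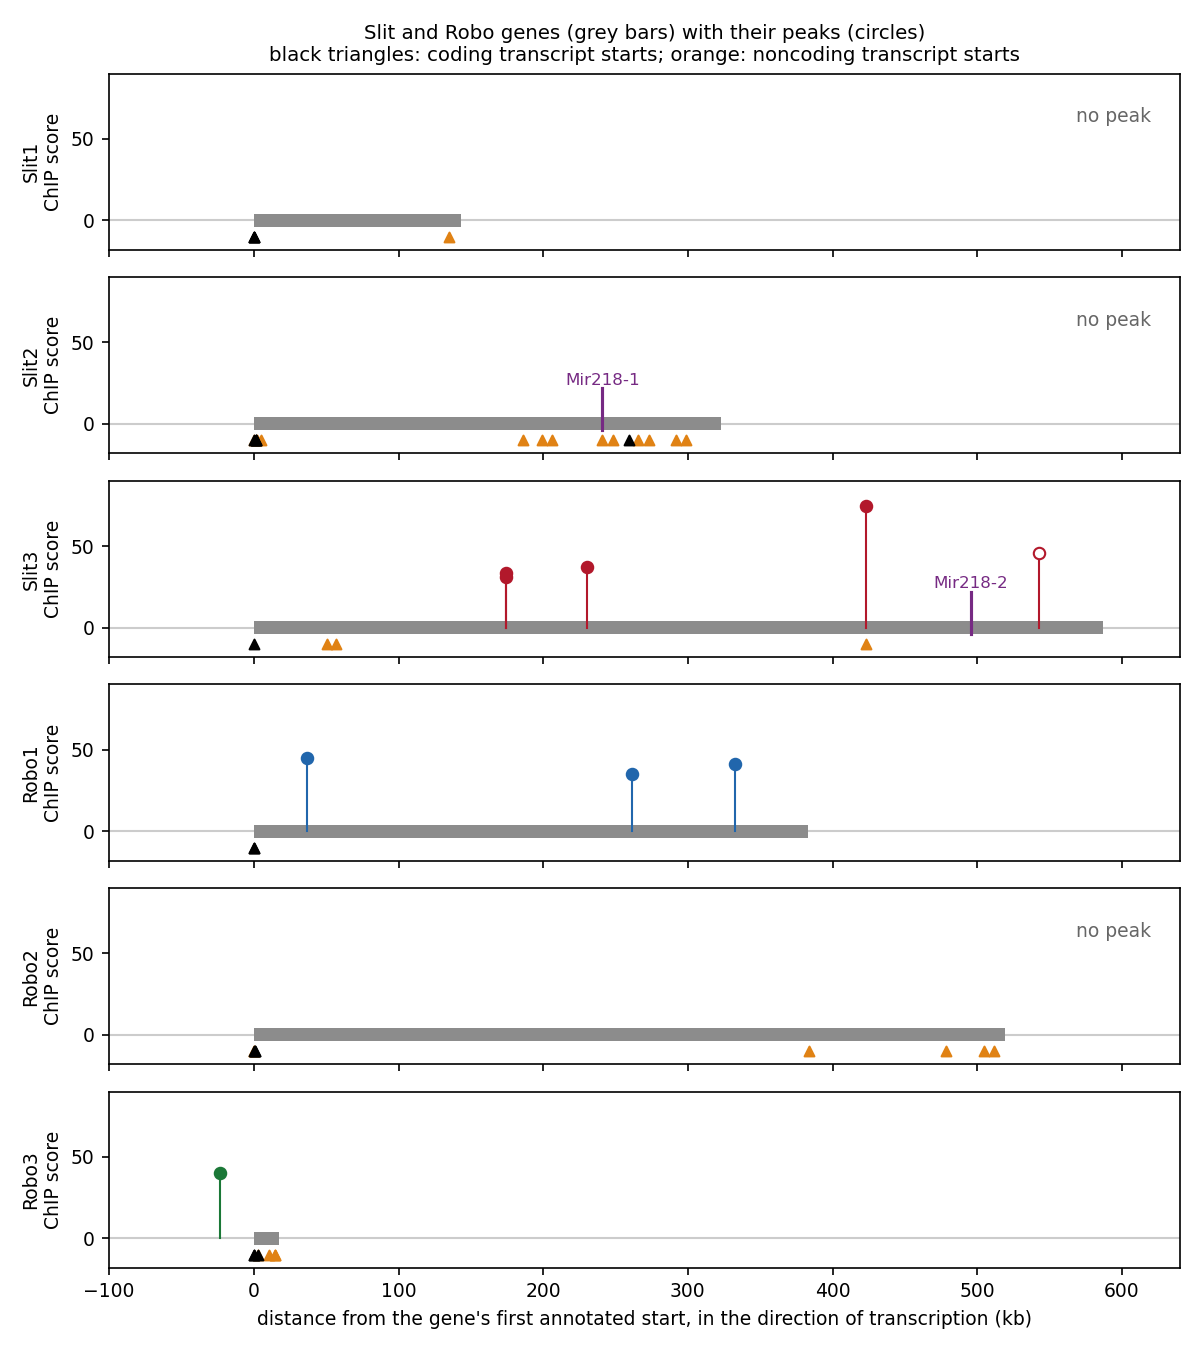
Each panel is 1 gene drawn from its first annotated start in the direction of transcription (x axis, kb), with the gene as a grey bar and each peak as a circle at its ChIP score (y axis). Black and orange triangles are starts of coding and noncoding transcripts, and the open circle is the Slit3 peak of score 45.5 whose nearest start is that of Pank3. The Slit3 peak of score 74.67 stands over an internal noncoding start 423 kb into the gene, the Robo1 peaks stand 36.4 to 332 kb into theirs, and Slit1, Slit2 and Robo2 have none.

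Slit1 and Slit2, the other ligand genes, had no peak. For Slit1 (chr19:41674747-41818155) the nearest listed peak was 392 kb from a start and belonged to Avpi1, with a score of 49.78. For Slit2 (chr5:48374394-48697521) it was 1840 kb away, near Gpr125, with a score of 97.16, and 0 peaks lay within 1 Mb of the gene. The annotation gives 16 different start positions for Slit2, 4 for Slit1 and 4 for Slit3. A gene without a peak here is a gene without an entry on the list. Binding under the caller's threshold, which is not stated, would not be seen.

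Robo1, a receptor that repels axons from Slit, held 3 separate peaks, all in introns. The strongest (chr16:72699567-72700066, intron 1 of 28) lay 36.4 kb inside the start, and scored 44.7 over a background of 0.13, with 49 tags (36.3 to 64.8). The next (chr16:72995429-72995928, intron 19) lay 332 kb in, 274 bp after an exon, and scored 40.95 over a background of 0.27, with 27 tags (17.8 to 39.3). The weakest (chr16:72924486-72924985, intron 3) lay 261 kb in, and scored 34.79 over a background of 0, with 15 tags (8.4 to 24.7). The 2 higher scores were at or above the median of all peaks and the lowest was close to the first quartile of 34.26. Their order by tags was the same, at ranks 553, 1468 and 2353 of 2454. No other protein-coding start lay nearer than 904 kb to any of the 3, and that one was a start inside Robo2, near its 3' end.

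Robo2, the neighbouring receptor gene (chr16:73892551-74412070, - strand), faces Robo1 across a stretch with few genes and had no peak inside it or assigned to it. The nearest listed peak was the Robo1 peak of score 40.95, 904 kb from a Robo2 start. That start is 1 of 9 annotated for Robo2 and lies near the 3' end of the gene, not at its 5' end (74412070). Robo1 and Robo2 encode closely related receptors. Their territories (the bases nearest to any of their own starts, internal ones included) were of similar length, 1670 kb and 1710 kb. Yet the 3 peaks of this pair were all in Robo1. With counts of 3 and 0 from 1 list this is a description and was not tested.

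Robo3, the receptor needed for commissural axons to cross the midline, had a single peak 23.6 kb upstream of its start, between genes (chr9:37264126-37264625). It scored 40.42 over a background of 0, and its region held 35 tags (24.4 to 48.7). The next protein-coding start, that of BC024479, was 32.5 kb from the maximum. Robo3 is short, 17.5 kb on chromosome 9 (37223254 to 37240760, - strand), and its territory of 50.8 kb was close to the median of 45.6 kb over all protein-coding genes.

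**Figure D2:**
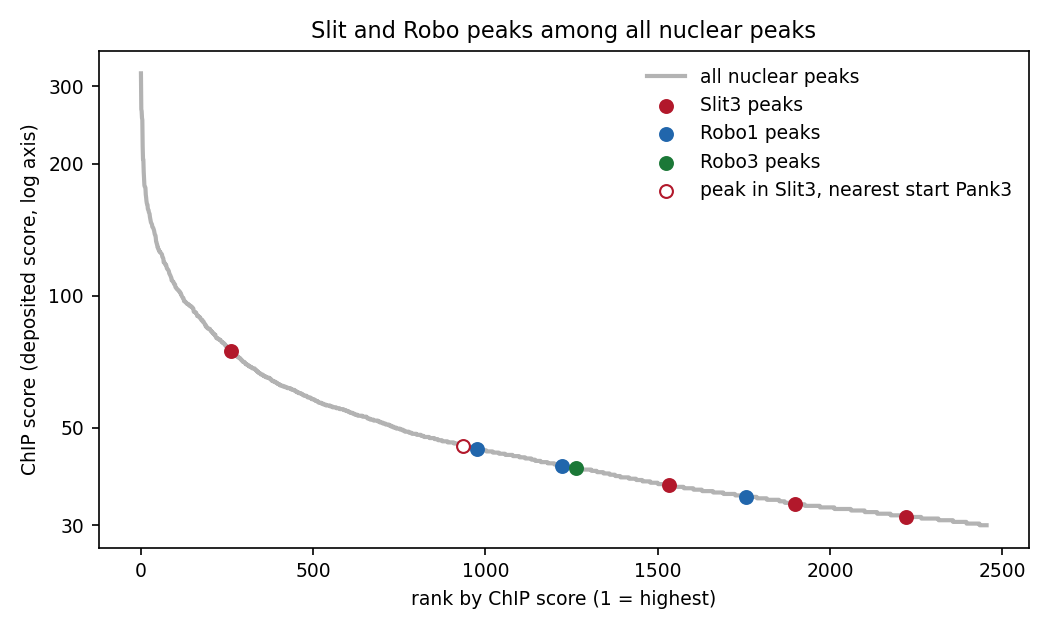
The grey line gives the ChIP score (y axis, log scale) of all 2454 nuclear peaks by rank (x axis), and coloured circles mark the peaks of Slit3, Robo1 and Robo3. The Slit3 peak of score 74.67 stands at rank 263, and the other 7 assigned peaks lie between ranks 977 and 2221, on the flat part of the line. By tags the 8 peaks rank from 374 to 2353.

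The number of genes with a peak has to be read beside the length of their territories. Of the 6 genes 3 had a peak (50%, 11.8 to 88.2, exact binomial interval), against 8.18% of the 22333 protein-coding genes. The 6 genes had a median territory of 1040 kb, against 45.6 kb for all protein-coding genes. Of the 112 genes with a territory at least as long as that of Robo1, 55 (49.1%) had a peak, and of the 646 with at least that of Slit3, 214 (33.1%). For Slit2 and Robo2 the same shares were 49.1% and 47.6%, for Slit1 with its shorter territory 23.0% of 3556 genes, and for Robo3, with a territory near the median, 14.3% of 10370 genes. Each share includes all longer territories, so that of Robo3 is not the share for genes of about its own territory length. Longer territories collect more peaks, and no test of the 6 genes against others was made.

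Per territory, the counts of peaks differed from gene to gene, a description that was not tested. At the mean density of the genome, 0.959 peaks per Mb of known sequence, the territory of Slit3 (680 kb) would hold 0.652 peaks and held 4 in 3 regions. That of Robo1 would hold 1.6 and held 3. Robo3 had 1 where 0.0488 would be held. Slit2 (1410 kb) and Robo2 had 0 where 1.35 and 1.64 would be held, and Slit1 (172 kb) had 0 where 0.165 would be held. At the peak density of each gene's own chromosome, the values would be 0.956 for Slit3, 1.53 for Robo1 and 0.056 for Robo3. For Slit2, Robo2 and Slit1 they would be 1.55, 1.57 and 0.254. Values of 1.64 and less are so small that a count of 0 beside them carries little information. Over all genes, whatever their territory length, 124 (0.555%) had 3 peaks or more, Robo1 and Slit3 among them. Of all genes 54 (0.242%) had 4 or more, Slit3 among them with both maxima of 1 region counted.

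**Figure D3:**
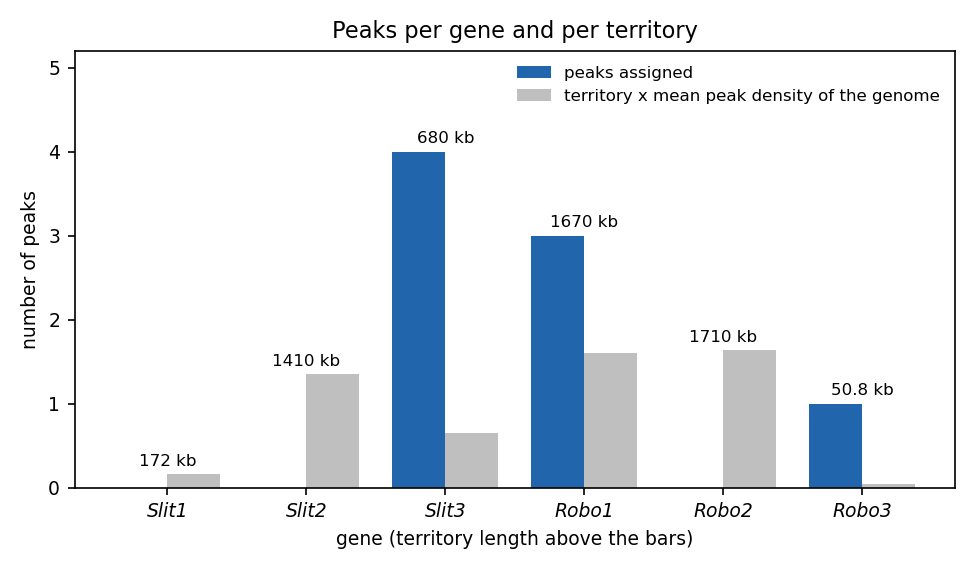
Blue bars give the number of peaks assigned to each gene, and grey bars the number its territory would hold at the mean peak density of the genome; the territory length is printed above each pair. Slit3 stands at 4 (in 3 regions) against 0.652 and Robo1 at 3 against 1.6, while Slit2 and Robo2 stand at 0 against 1.35 and 1.64.

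The sequence under the peaks varied from gene to gene. TAATTA, the palindromic homeodomain core searched on both strands in 200 bp around the maximum, was present at 2 of the 8 peaks, against 34.2% of all 2454. These were the strongest Robo1 peak, with 2 copies on either side of the maximum at -68.5 and 77.5 bp, and the Robo3 peak, with 1 copy 14.5 bp from it. The unassigned Slit3 peak of score 45.5 also had 2 copies, the nearer at -44.5 bp. At the strongest Slit3 peak the nearest TAATTA was 1354.5 bp from the maximum. In windows of 500 bp, 4 of the 8 peaks had it, against 41.6% of all peaks. So small a count does not set the family's peaks apart from the rest of the list.

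The shorter core ATTA, counted on both strands, was present at all 8 peaks, as it was at 94.2% of all peaks, where the median was 3 matches. Each TAATTA counts as 2 of these, since it reads ATTA on both strands, and each ATTAAT likewise holds 2. As the windows printed above show, the strongest Robo1 peak held 8, a number that 1.71% of all peaks reached. The Slit3 peak of score 33.46 held 7 (3.67% of peaks held as many), and the strongest Slit3 peak and the Robo3 peak held 5 each (16.4%). The 2 weaker Robo1 peaks and the Slit3 peak of score 36.94 held 2 each. Within Robo1 the strongest peak therefore had the most cores. Within Slit3 the count did not follow the score, since the peak of score 33.46 held more than that of 74.67.

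Other arrangements of the core were found in fewer peaks. In the strongest Slit3 window 2 TAAT cores were 1 base apart (TAATNTAAT), which was found in 2.65% of all peaks. ATTAAT, in which 2 cores overlap, was in the strongest Robo1 window, the Robo3 window and the Slit3 windows of scores 33.46 and 31.31. These last 2 windows hold the same copy. ATTAAT was thus at 4 of 8 peaks but in 3 regions, against 13.1% of all peaks. It was also in the unassigned Slit3 window of score 45.5. Its longer form ATTAATCA was in the Robo3 window and in both windows of the Slit3 region with 2 maxima, which overlap and hold the same copy, against 2.49% of all peaks. These 3 patterns were picked after the windows had been seen, which favours finding them here. ATTA and TAAT with 3 or 10 bases between them were in 0 of the 8 windows, against 4.97% and 2.93% of all peaks, and the unassigned Slit3 window had the form with 3 bases.

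STAT sites, counted because the series concerns STAT3 beside the LIM factors, were in none of the 8 windows. The relaxed site TTCNNNGAA was in 4.97% of all peaks and the strict site TTCCNGGAA in 0.733%, so most peaks of the list had none either. The SOX site ATTGTT was at the strongest Slit3 peak and, as 1 copy shared by both overlapping windows, at the Slit3 region with 2 maxima, against 14.3% of all peaks. The E-box CAGCTG was at the Robo1 peak of score 34.79 alone, against 13.9% of all peaks, and the octamer ATGCAAAT was at 0 of 8 against 4.24%. The GC content of the Robo3 window was 59.5%, above the third quartile of all peaks (51.5%), and the other 7 windows lay between 41.0% and 49.0%. A match says only that these letters occur in the window.

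**Figure D4:**
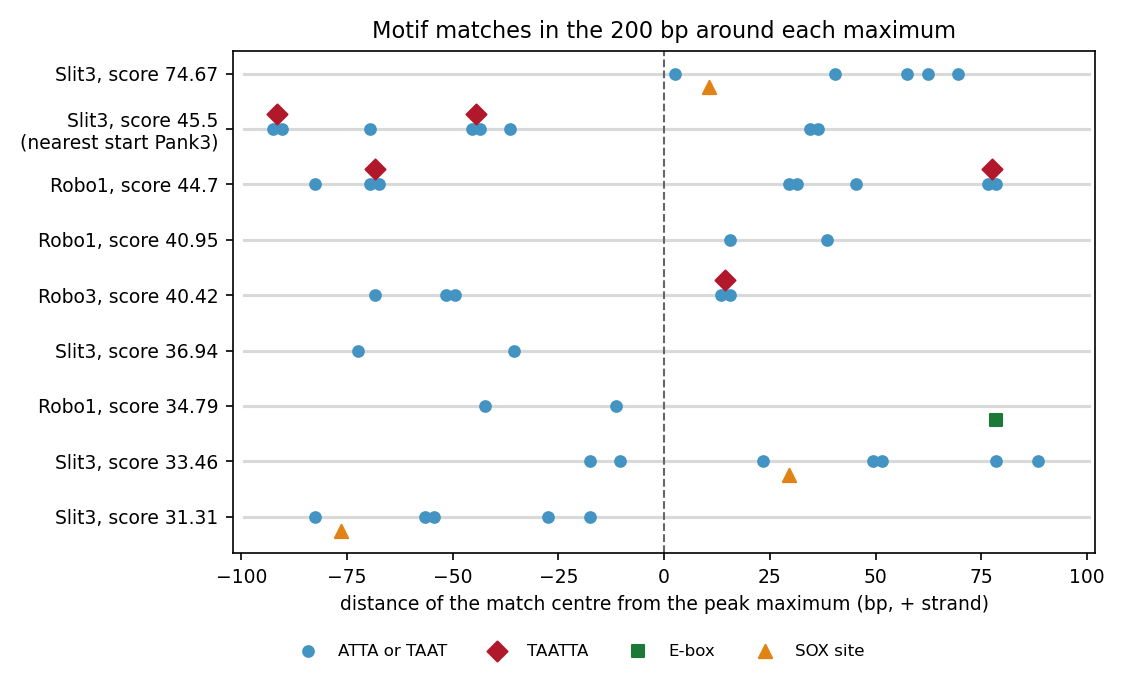
Each row is 1 peak inside or assigned to Slit3, Robo1 or Robo3, ordered by ChIP score, and the x axis is the distance of a match's centre from the peak maximum (bp, + strand of mm9). Blue circles are ATTA or TAAT, red diamonds TAATTA, green squares the E-box and orange triangles the SOX site. The Robo1 peak of score 44.7 and the unassigned Slit3 peak of score 45.5 carry 8 cores and 2 TAATTA each, and the strongest Slit3 peak has its 5 cores on 1 side of the maximum.

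Of 25 genes that work with Slits and Robos, Ext1 and Pak1 had a peak (2 genes, 8%, 0.984 to 26), a share near the 8.18% of all protein-coding genes. The median territory of the 25 was 127 kb, against 45.6 kb for all protein-coding genes. Ext1, which builds the heparan sulphate chains that Slits bind, held 4, with ChIP scores of 56.74, 32.12, 31.05 and 30.24. Its strongest 2 lay upstream at -188 kb and -158 kb, inside the neighbouring gene Samd12, and the others lay in introns of Ext1, 3.08 kb and 30 kb past the nearest start. Pak1, a kinase downstream of Rac, held 1 of score 43.89 upstream at -4.81 kb from its start (chr7:104931996-104932495, 31 tags). The other 23 had none: the receptor genes Robo4 and Dcc, the Robo3 ligand gene Nell2, the GTPase regulators Srgap1, Srgap2, Srgap3, Arhgap39 and Myo9b, the adaptors Nck1 and Nck2, and Ndnf, Dag1, Gpc1, Flrt1, Flrt2, Flrt3, Cxcr4, Cxcl12, Sos1, Abl1, Enah, Usp33 and Prrg4. Flrt3, an interaction partner of Robo1, would be assigned a peak with coding starts alone.

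Lists from other guidance families were set beside the Slit and Robo genes. Class 3 semaphorin, neuropilin and plexin A genes with a peak numbered 6 of 13 (46.2%, 19.2 to 74.9), at 1.71 peaks per Mb of territory, against 1.41 for the Slit and Robo genes. The median ChIP score of their 7 peaks, in 7 regions, was 51.9, and that of the 8 Slit and Robo peaks was 38.7. The 8 lie in 7 regions, so 1 Slit3 region with 2 low-scoring maxima counts 2 times in that median and in the 1.41 per Mb. The strongest peak of the semaphorin list was at Nrp2 (70.66), below the strongest Slit3 peak. Eph, ephrin and netrin genes with a peak numbered 7 of 30 (23.3%, 9.93 to 42.3), at 0.557 peaks per Mb, a median score of 35.7 and the strongest at Efna1 (50.59). Median territories were 240 kb for the semaphorin list, 151 kb for the Eph list and 1040 kb for the Slit and Robo genes. They were thus of unlike length, and the shares are not matched for it. Of all protein-coding genes, 8.18% had a peak. All genes together had 0.924 peaks per Mb. The families are only described side by side. Differences between them, or from all genes, were not tested, and the intervals cannot decide them because the lists were chosen and not drawn at random.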

How the data were processed

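Flag ChIP-seq was made from 4 libraries, 2 with and 2 without Dox, in 2 numbered sets. Per the submitters' processing notes, BWA 0.5.8a was used with the build mm9. The sources used here do not name the peak caller, its threshold or any pooling of libraries. The list deposited by the authors is of 2455 peaks with a ChIP score, a background score (unit score, scale not stated) and a count of tags per region. The total depth of the libraries is unknown. A single mitochondrial peak was left out.

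The members and lists were chosen with earlier results of these data known, so no test was made. Each maximum went to the nearest start of any transcript of a protein-coding gene (GENCODE M1, mm9), and territories are the bases nearest to a gene's starts. All list genes matched, 1 by an older symbol (Ndnf). Named are all 6 members, all 25 partner genes, the gene with the strongest peak of each other list, and neighbouring or host genes. Motifs were searched on both strands in 200 bp. Intervals are exact 95% binomial or Poisson intervals and cover counting error only. Python 3.11.15 with pandas 2.3.3, scipy 1.17.1 and pysam 0.24.0 was used, and the steps were tested on simulated data.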

Additional observations from a re-analysis of the deposited data

How the results depend on the processing

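The 3 genes with a peak were Slit3, Robo1 and Robo3 with all annotated genes, 1 start per gene, peaks within 100 kb, 1 peak per region, window or region centres, coding transcripts alone, or background under 5% of the ChIP score, the last 2 and region centres having been added after the data were seen. Slit3 was held by different peaks under these rules. With all annotated genes, within 100 kb or with low background, only its peak of score 74.67 remained. With coding transcripts alone or 1 start per gene, that peak went to Pank3 and the weaker peaks of intron 4 remained. No Slit3 peak was thus assigned under all of these rules. Within 10 kb, and among the 25% of peaks with the highest scores, 1 gene remained, Slit3, through the peak of score 74.67. That peak is near a noncoding start and 423 kb from the only coding start of Slit3. In the top 50% there were 2, and inside gene bodies 2. The share of all protein-coding genes with a peak under each of these settings is not given, so these counts only describe the members. Assigned peaks numbered 5 of 2454 with all annotated genes, 1 of 811 within 10 kb and 3 of 2001 within 100 kb. They numbered 3 of 1239 in the top 50%, 1 of 615 in the top 25% and 5 of 1899 with low background. TAATTA was at 1 of 8 peaks in 100 bp windows, against 26.3% of all peaks, and at 4 of 8 in 500 bp windows, against 41.6%. It was at 1 of the 3 peaks in the top 50%, for which the share of all such peaks is not given. Partner genes with a peak numbered 1 by gene body and 1 in the top 25%. The semaphorin list had 2 by gene body, 0 within 10 kb and 3 in the top 25%, and the Eph list had 4, 4 and 0, with 2 in the top 50%. For the partner, semaphorin and Eph lists too, the share of all protein-coding genes under each setting is not given. Their counts are therefore not a comparison of families. By tags instead of score every rank moved: the Slit3 peaks of scores 74.67, 36.94, 33.46 and 31.31 ranked 374, 1167, 1468 and 1468, the Robo1 peaks of scores 44.7, 40.95 and 34.79 ranked 553, 1468 and 2353, and the Robo3 peak ranked 1011. With 1 added to each score, background as a share of the ChIP score was 1.35% to 13.8% over the 8 peaks.

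No paired analysis was possible because the list holds no value per library, and for the same reason leaving out each replicate in turn was not run. Depth limits the tag counts, of 15 to 60 per region here.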
